A study of Mus musculus with 2 samples.

Results

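Endothelial cells keep their identity through a set of transcription factors, and 10 of these were followed across the cells of the mouse liver: Gata4, Maf, Klf2, Klf4, Sox17, Sox18, Erg, Mecom, Tal1 and Id1. The genes were listed by name, with earlier results of these data known, and all 10 were listed in both libraries, among 19219 genes that the libraries shared. Single cells were read from the non-parenchymal fraction, that is, the liver cells other than hepatocytes, of C57BL/6 males aged 8 weeks. The normal mouse (quiescent state) received olive oil and the fibrosis mouse CCl4, a solvent toxic to hepatocytes, at 15% in olive oil and 0.6 µl per gram of body weight. Both received 2 intraperitoneal injections per week for 6 weeks, and cells were taken 48 hours after the last one. There was 1 mouse and 1 library per condition, so fibrosis, animal and library cannot be told apart, no test between conditions was possible, and every interval below is a 95% interval for counting error only.

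Sinusoidal endothelial cells of the liver (LSECs) are fenestrated, lack an organised basement membrane and clear waste from the blood. GATA4 and c-MAF, the product of Maf, are known to drive the sinusoidal programme, and loss of GATA4 lets a continuous, capillary-like programme appear. KLF2 and KLF4 are induced by the shear stress of flowing blood. SOX17 and MECOM are known from arterial endothelium, SOX18 from the development of blood and lymph vessels, ERG from the maintenance of quiescent endothelium, and TAL1 from the origin of blood and endothelium. ID1 is a target of BMP signalling that binds no DNA itself and holds back the E proteins with which TAL1 binds its sites.

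The normal library held 8130 cells and 44062632 unique molecules (UMIs) and the fibrosis library 6437 cells and 53288463 UMIs, at medians of 4144.5 and 5619 per cell, and 15 cell barcodes occurred in both. After filtering, 7471 and 6132 cells were kept. Cells were clustered and named from marker genes with the 10 genes held out, each library on its own, and the endothelial cells of both libraries were then clustered together. The normal and fibrosis libraries held 215 and 270 zone 1-like (periportal sinusoidal) cells, 485 and 322 zone 2/3-like (midlobular and pericentral sinusoidal) cells, 917 and 503 sinusoidal cells of no zone, 143 and 109 central vein-like cells, and 377 and 203 portal vessel-like cells. The first 3 of these groups are together called LSEC-like (1617 and 1095 cells), and Stab2, a scavenger receptor gene that marks them, stood at 14.6 and 13.2 UMIs per 10000. Among the cells of no zone was a sub-cluster of 378 normal and 66 fibrosis cells (23.4% and 6.03% of LSEC-like cells) whose 10 leading genes, Hpd, Cdo1 and Fabp1 among them, are known from hepatocytes. Its 8 hepatocyte marker genes summed to 244 and 22.1 UMIs per 10000, against 124 and 10.4 in the other LSEC-like cells and 1568 and 462 in hepatocyte-like cells, and its Stab2 level was 14.5 and 11.6. Hepatocyte RNA was thus higher in normal than in fibrosis LSEC-like cells in and outside this sub-cluster, and its part in the values below was not tested beyond leaving the sub-cluster out. LSEC-like cells were deeper in the fibrosis library, with medians of 5208 and 7669 UMIs per cell. Levels are therefore summed UMIs per 10000 UMIs of a class, and shares of cells are given after 1000 UMIs were drawn from each cell. A gene was called between classes by size alone, when its levels differed at least 1.5-fold and the higher one was at least 0.1 UMIs per 10000 and rested on at least 10 UMIs.

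Upstream sequences are shown for Klf2 and Klf4, which were higher in both larger vessel classes than in the sinusoid of the normal library, and for Mecom, which was highest in the portal vessels. Of the 10 genes, 5 matched the RefSeq promoter table (GRCm38.p6). Each line gives 250 bases before a RefSeq start, 5′ to 3′ along the gene. Capitals mark the MEF2 motif, CTA and TAG with any 4 bases between them, since MEF2 factors are known to turn on Klf2 under flow. They also mark the E-box CANNTG, some forms of which TAL1 binds with an E protein. Both motifs read the same on either strand, and each site was counted once.
Klf2, chr8:72318812-72319061, plus strand: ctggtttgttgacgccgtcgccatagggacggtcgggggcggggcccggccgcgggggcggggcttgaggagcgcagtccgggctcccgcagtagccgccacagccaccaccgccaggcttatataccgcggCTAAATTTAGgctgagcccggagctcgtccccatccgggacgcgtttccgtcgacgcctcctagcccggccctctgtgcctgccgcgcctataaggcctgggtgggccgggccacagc
Klf4, chr4:55532476-55532725, minus strand: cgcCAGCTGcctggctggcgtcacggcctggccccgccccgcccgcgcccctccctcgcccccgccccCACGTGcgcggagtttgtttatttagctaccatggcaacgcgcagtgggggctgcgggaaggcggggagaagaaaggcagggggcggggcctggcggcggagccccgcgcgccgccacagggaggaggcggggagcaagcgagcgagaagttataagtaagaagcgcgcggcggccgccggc
Mecom, distal start, chr3:30509760-30510009, minus strand: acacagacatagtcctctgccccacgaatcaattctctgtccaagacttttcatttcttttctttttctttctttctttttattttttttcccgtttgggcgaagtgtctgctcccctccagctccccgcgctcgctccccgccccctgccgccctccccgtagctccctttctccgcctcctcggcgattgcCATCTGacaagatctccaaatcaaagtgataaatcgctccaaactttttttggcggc
Mecom, proximal start, chr3:30013205-30013454, minus strand: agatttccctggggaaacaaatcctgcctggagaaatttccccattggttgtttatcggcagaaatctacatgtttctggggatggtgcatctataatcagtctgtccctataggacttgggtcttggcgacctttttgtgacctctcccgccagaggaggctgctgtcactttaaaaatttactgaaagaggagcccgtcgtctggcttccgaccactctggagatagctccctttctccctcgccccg
The Klf2 line holds 1 MEF2 match, a motif present in 3.2% of 32851 promoter windows of this length. The Klf4 line holds 2 E-boxes and the distal Mecom line 1, a motif present in 66.2% of windows. The proximal Mecom line holds neither, and reads from the 3′ end of the transcript cannot tell the starts apart. Motifs of KLF, GATA, ETS, SOX and RBPJ factors were searched on both strands as well and are not in capitals. Of these, the KLF motif CACCC was matched 1 time, in the Klf2 line, and is present in 52% of windows.

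Among the cells of the liver, Gata4, Maf, Sox17, Sox18, Erg and Tal1 were at least 1.5-fold higher in LSEC-like cells than in any class outside the endothelium in both libraries, and Klf2, Klf4 and Id1 were not. These were 6 of 10 genes over 13 classes in the normal library, where 3.4% of all genes passed the same limit. In the fibrosis library Mecom joined them, giving 7 of 10 over 14 classes, where 3.16% of all genes passed. Some of these calls depended on which cells were kept and how they were grouped. In the normal library Gata4 was not called at a clustering resolution of 0.4 (ratio 1.47) or 1.5 (1.48) or with no mitochondrial limit (1.46), and Mecom was called under 5 alternatives, among them the transcription factors kept in clustering (1.95) and the top doublet scores left out (2.8). In the fibrosis library Erg was not called with no mitochondrial limit (1.48), nor Sox17 without cells under 2000 UMIs (1.42). With levels per cell in place of per 10000 UMIs, 0 of 10 passed in either library. Per 10000 UMIs, HSC/MF-like cells (hepatic stellate cells and myofibroblasts) were the highest other class for several genes in the normal library and for Gata4 in the fibrosis library. Their medians were 10589 and 19664 UMIs per cell, and the part of depth was not tested.

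Maf (chr8:115682942-115707794, minus strand, GRCm38, as are all gene positions here) stood at 34 UMIs per 10000 in normal LSEC-like cells (33.6 to 34.4) and 15.2 in Kupffer cell-like cells, the resident macrophages, a ratio of 2.24 (2.16 to 2.32). A Maf UMI was seen in 94% of normal and 92.8% of fibrosis LSEC-like cells. Sox18 (chr2:181669836-181671640, minus strand) was 2.92-fold (2.48 to 3.46) higher in normal LSEC-like than in HSC/MF-like cells. Maf and Sox18 thus kept clear of the next class by more than counting error. Sox17 (chr1:4490931-4497354, minus strand) was 2.88-fold (2.14 to 3.98) and Tal1 (chr4:115056426-115071755, plus strand) 2.47-fold (1.74 to 3.6) higher over HSC/MF-like cells. Gata4 (chr14:63198922-63271692, minus strand) exceeded the same class 1.5-fold (1.31 to 1.72) in the normal library, at the limit of the rule, and 1.83-fold (1.71 to 1.95) in the fibrosis library. Erg (chr16:95359169-95586593, minus strand) rested on 313 UMIs in normal LSEC-like cells, and its ratio over neutrophil-like cells, 1.93, had a wide interval (1.06 to 3.9). In the fibrosis library pDC-like cells (plasmacytoid dendritic cells), whose endothelial-only genes stood at 37.2% of the LSEC-like level against 18% in the normal library, were the next class for Sox17 (ratio 1.6, 1.25 to 2.07), Sox18 (1.85, 1.57 to 2.18), Erg (1.62, 1.0 to 2.79), Mecom (1.77, 1.38 to 2.31) and Tal1 (2.36, 1.69 to 3.38). The intervals of Gata4 in the normal library, of Sox17 and Mecom in the fibrosis library and of Erg in both reached below the limit.

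**Figure D1:**
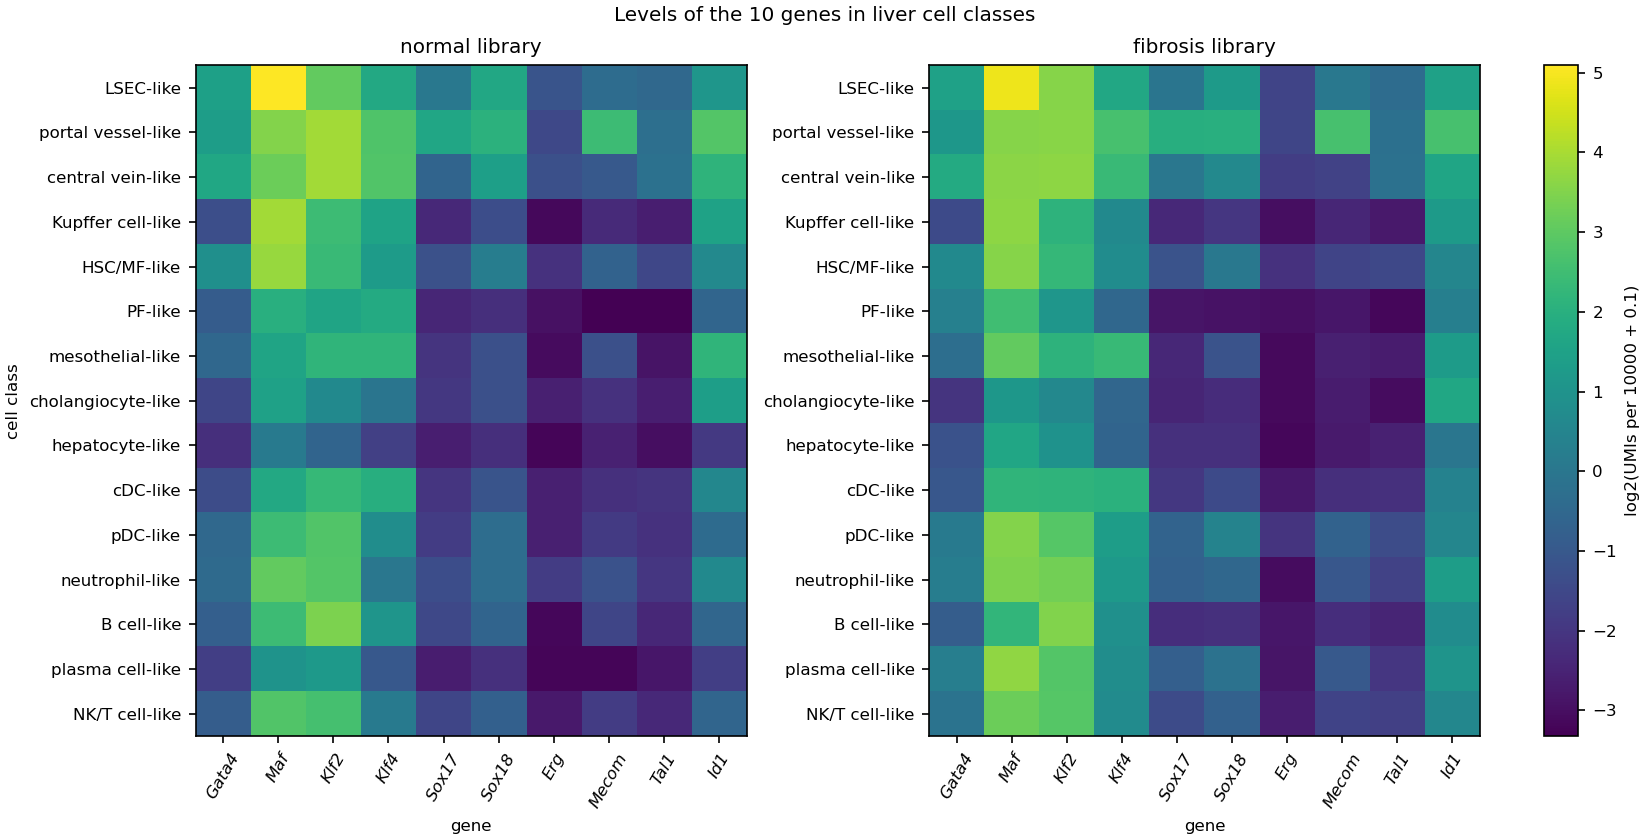
Levels of the 10 genes (columns) in the cell classes named in both libraries (rows), as log2(UMIs per 10000 + 0.1) in colour, with 1 library per condition. The sinusoidal groups are pooled as LSEC-like. Classes named in 1 library (erythroid-like, classical monocyte-like and scar-associated macrophage-like) are not drawn. Of these, classical monocyte-like cells held the highest fibrosis level of Maf outside the endothelium (12.8). Maf is highest in LSEC-like cells (34 and 29.6 UMIs per 10000), whereas Klf2 in B cell-like cells (10.6 and 11.2) is near its LSEC-like level (8.26 and 11.6).

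RNA of endothelial cells was also read in other classes. The summed level of 12 endothelial-only genes was 219 UMIs per 10000 in normal and 198 in fibrosis LSEC-like cells. In classes outside the endothelium it came to between 2.87% (hepatocyte-like) and 37.5% (HSC/MF-like) of that level in the normal library, and between 2.99% (PF-like, portal fibroblasts) and 38% (plasma cell-like, with B cell genes among its leading ones) in the fibrosis library. Each gene's level in a class was set against what this share of LSEC-like RNA would bring, called the carried-over level. The name is a label. Free RNA, doublets and expression of endothelial genes by these cells were not told apart. The estimate takes LSEC-like RNA alone, so RNA from portal vessels or veins is not in it. Sox17, Sox18, Erg and Tal1 exceeded 2 times the carried-over level, counting interval included, in 0 of 13 normal and 0 of 14 fibrosis classes. The median over classes was 1.06 and 0.886 times for Sox18, 1.11 and 0.999 for Tal1, 0.99 and 1.4 for Erg, and 1.68 and 1.39 for Sox17. The counting interval lay above the carried-over level itself in 5 normal and 7 fibrosis classes for Sox17, 3 and 4 for Sox18, 3 and 3 for Erg, and 1 and 0 for Tal1. Tal1 in the normal cluster that carried dendritic cell markers (cDC-like), which Mpo, Prtn3 and Elane, genes of granulocyte precursors, led as well, was at 0.138 UMIs per 10000 (0.104 to 0.179) against a carried-over 0.0546. Sox17 in normal NK/T cell-like cells was at 0.236 UMIs per 10000 (0.192 to 0.288) against a carried-over 0.14. Erg in fibrosis HSC/MF-like cells was at 0.131 UMIs per 10000 (0.108 to 0.156) against a carried-over 0.0758. The error of the carried-over level is not in these intervals, and whether such cells express the genes was not tested.

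Klf2, Klf4 and Id1 were read well above that level outside the endothelium. Klf2 (chr8:72319033-72321656, plus strand), which also keeps lymphocytes quiescent, passed 2 times the carried-over level in 10 of 13 normal and 8 of 14 fibrosis classes. In normal B cell-like cells it stood at 10.6 UMIs per 10000 (10.1 to 11), above the 8.26 of LSEC-like cells. In the fibrosis library B cell-like cells were at 11.2 (10.5 to 11.9) and LSEC-like cells at 11.6 (11.4 to 11.8), so these intervals overlapped. Klf4 (chr4:55527143-55532466, minus strand) was highest outside the endothelium in mesothelial-like cells, the lining of the liver surface, at 4.4 (3.87 to 4.97) and 4.97 (4.65 to 5.31), above LSEC-like cells of both libraries. Id1 (chr2:152736251-152737410, plus strand) was at 4.43 in normal mesothelial-like cells and at 3.09 in fibrosis cholangiocyte-like cells (bile duct epithelium), 25.9 and 20.7 times the carried-over level. Portal vessel-like cells stood above these classes, at 15.2 and 12 for Klf2, 6.79 and 6.22 for Klf4, and 7.13 and 6.22 for Id1, although the Klf2 intervals of the fibrosis library overlapped with B cell-like cells (11.4 to 12.6).

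Maf and Gata4 passed 2 times the carried-over level in fewer classes. Maf was 5.09 and 4.96 times that level in Kupffer cell-like cells of the normal and fibrosis libraries. In scar-associated macrophage-like cells, named in the fibrosis library, it was at 8.89 UMIs per 10000, 5.86 times. Its highest value of this kind in the fibrosis library lay outside the macrophages, in PF-like cells, at 6.33 times, against 2.42 for normal PF-like cells. Fibrosis mesothelial-like cells were at 2.88 times, against 1.04 for normal ones. The counting interval of Maf lay above the carried-over level in 6 of 13 normal and 13 of 14 fibrosis classes, and passed 2 times that level in 2 and 4. HSC/MF-like cells showed a level near that of Kupffer cell-like cells, 13.8 and 11.8, but 1.09 and 1.19 times the carried-over one. Gata4, which is also known from stellate cells, was 1.78 and 1.64 times the carried-over level in HSC/MF-like cells. In mesothelial-like cells it was 2.78 and 2.67 times. In PF-like cells it was 3.6 times in the normal and 14.3 times in the fibrosis library, on 15 and 219 UMIs. For Mecom the values differed between the libraries. Its median over classes was 2.01 times the carried-over level for normal and 1.09 for fibrosis cells, and its counting interval lay above that level in 9 of 13 and 2 of 14 classes. The highest, normal mesothelial-like cells, was at 5.41 times on 18 UMIs.

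**Figure D2:**
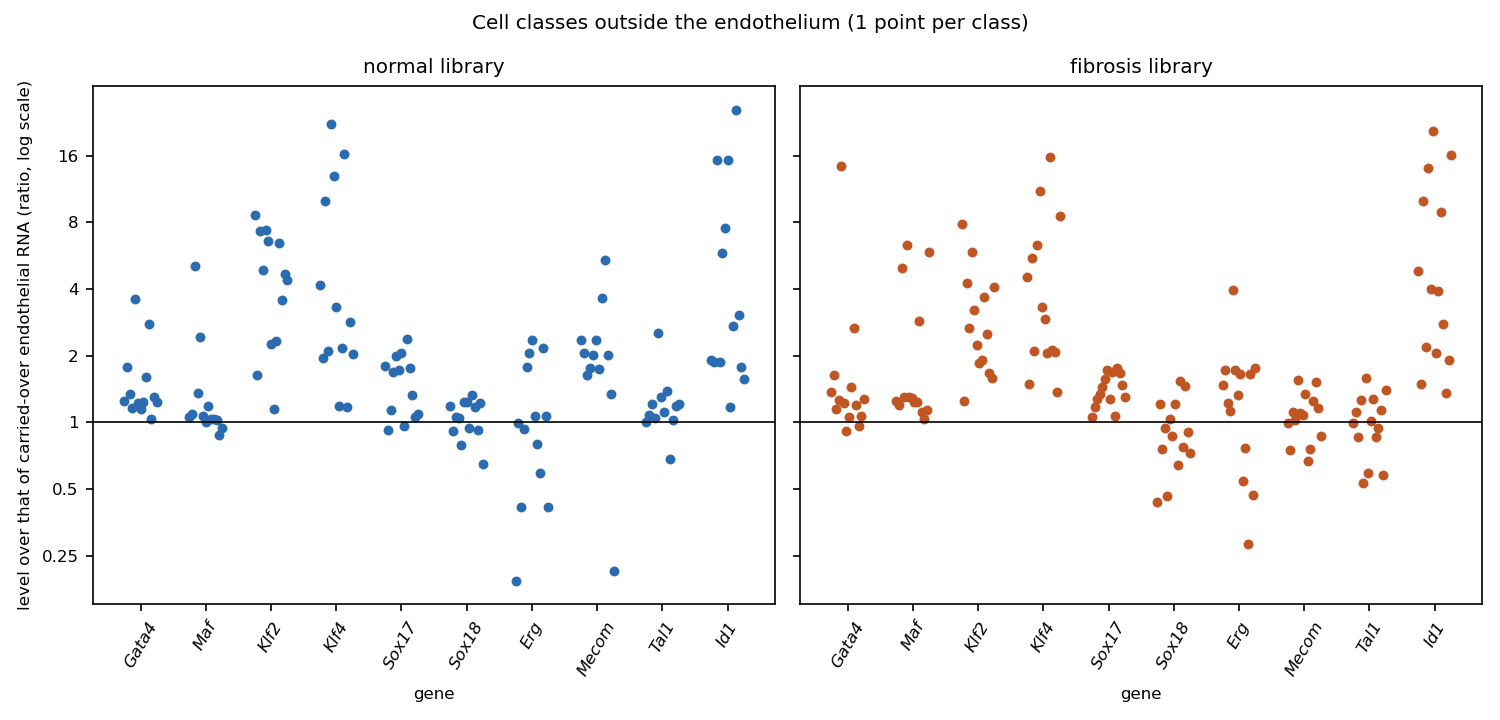
Level of each gene in classes outside the endothelium over its carried-over level (ratio, log scale), with 1 point per class in the normal and the fibrosis library. Sox18 points lie around 1 (medians 1.06 and 0.886), whereas the highest normal points of Klf2, Klf4 and Id1 are at 8.68, 22.2 and 25.9; Mecom and Tal1 in normal PF-like cells, both at 0, are not drawn.

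Along the lobule Mecom, Sox17 and, less steeply, Sox18 were highest on the portal side. The values by class are a description, since the classes are clusters of these cells. Mecom (chr3:29951296-30548008, minus strand) stood at 5.4 UMIs per 10000 in normal portal vessel-like cells (5.11 to 5.7), 1.87 in zone 1-like (1.63 to 2.13), 0.744 in no-zone, 0.407 in central vein-like and 0.14 in zone 2/3-like cells. The fibrosis library gave the same order, at 6.08, 2.01, 0.834, 0.219 and 0.19, with overlapping intervals for the last pair. Zone 1-like cells exceeded zone 2/3-like cells 13.3-fold (9.56 to 19) and 10.6-fold (7.95 to 14.3). The zone 2/3-like values rested on 42 and 54 UMIs and were near those of B cell-like cells (0.24 and 0.113), and the part of carried-over RNA in the size of these folds was not tested. A Mecom UMI was seen in 33.4% of normal portal vessel-like, 15.8% of zone 1-like and 0.619% of zone 2/3-like cells.

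Sox17 stood at 3.03 and 3.78 UMIs per 10000 in portal vessel-like cells of the normal and fibrosis libraries, 1.47 and 1.18 in zone 1-like cells, and 0.75 and 0.732 in zone 2/3-like cells. Zone 1-like cells were thus 1.96-fold (1.6 to 2.39) and 1.61-fold (1.34 to 1.94) higher than zone 2/3-like cells. Sox18 was at 4.22 in normal zone 1-like and 4.18 in portal vessel-like cells, which did not differ beyond counting error, and at 2.82 in zone 2/3-like cells. Its ratio of zone 1-like over zone 2/3-like cells, 1.49 for normal and 1.75 for fibrosis cells, lay on either side of the limit. In all, 2 of 10 genes were called higher in zone 1-like than in zone 2/3-like cells of the normal library (Sox17 and Mecom), against 7.42% of all genes, and 3 of 10 in the fibrosis library (with Sox18), against 5.08%. At a clustering resolution of 1.5 the normal call of Sox17 was lost (ratio 1.47) and Sox18 was called in its place (1.62). In the other direction 0 were called in either library, against 6.76% and 5.51%.

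In the normal library Klf2, Klf4 and Id1 were higher in the larger vessels at both ends of the lobule than in the sinusoidal groups. Klf2 was at 15.2 UMIs per 10000 in portal vessel-like and 15 in central vein-like cells, with overlapping intervals, and at 9.93 in zone 1-like, 8.48 in zone 2/3-like and 7.69 in no-zone cells. Klf4 was at 6.79 and 6.98 in these vessel classes, again overlapping, and between 3.12 and 3.58 in the sinusoidal groups. Id1 separated the vessels, with 7.13 in portal vessel-like and 4.32 in central vein-like cells, against 2.79 in zone 1-like and 1.95 in zone 2/3-like cells. Normal portal vessel-like cells exceeded LSEC-like cells 1.84-fold (1.77 to 1.91) for Klf2, 2.09-fold (1.97 to 2.22) for Klf4 and 3.47-fold (3.25 to 3.7) for Id1. In the fibrosis library the same ratios were 1.04, 1.95 and 2.31. Klf2 in that library was at 12 in portal vessel-like and 12.4 in central vein-like cells, against 13.5 in zone 1-like and 12.6 in zone 2/3-like cells. Id1 in fibrosis central vein-like cells, at 3.0, was 1.11 times its LSEC-like level, against 3.39 in zone 1-like cells. Klf4 was the gene of the 3 that stayed called higher in both vessel classes, at 1.59 times the LSEC-like level in central vein-like cells.

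Between portal vessel-like and LSEC-like cells, 5 of 10 genes were called higher in the normal library (Klf2, Klf4, Sox17, Mecom and Id1), against 10.8% of all genes, and 5 in the fibrosis library (Klf4, Sox17, Sox18, Mecom and Id1), against 11.3%. Maf was the 1 gene called lower in each, against 9.37% and 8.19%. Central vein-like cells had 3 genes higher than LSEC-like cells in the normal library (Klf2, Klf4 and Id1), against 14.1%, and 1 in the fibrosis library (Klf4), against 11.3%. The genes lower there were Maf, Sox17 and Mecom in the normal library, against 13.4%, and Maf, Sox18 and Mecom in the fibrosis library, against 9.38%. The 14 dissociation stress genes, which cell isolation can induce, summed to 147 UMIs per 10000 in normal portal vessel-like, 102 in central vein-like and 89.2 in LSEC-like cells, and 12 of the 14 were called higher in normal portal vessel-like than in LSEC-like cells. In the fibrosis library the sums were 142, 129 and 109 in the same order, and 3 of the 14 stress genes were called higher in portal vessel-like cells. Their part in the Klf2, Klf4 and Id1 values was not tested.

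Maf ran the opposite way and was highest in the sinusoid. Its normal levels were 30.2 UMIs per 10000 in zone 1-like, 33.6 in zone 2/3-like and 35.2 in no-zone cells, against 11.4 in portal vessel-like and 9.08 in central vein-like cells. Portal vessel-like cells had 0.337 of the LSEC-like level (0.324 to 0.35) in the normal and 0.397 (0.376 to 0.417) in the fibrosis library. Gata4, Tal1 and Erg varied less along the lobule. Gata4 ranged from 2.48 in no-zone and 2.48 in portal vessel-like cells to 3.15 in central vein-like cells of the normal library, and from 2.1 in portal vessel-like to 3.4 in central vein-like cells of the fibrosis library. Tal1 ranged from 0.559 in zone 1-like to 0.773 in central vein-like cells of the normal library, and Erg from 0.257 in portal vessel-like to 0.384 in zone 2/3-like cells. Neighbours in these normal orders of Tal1 and Erg overlapped within counting error.

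**Figure D3:**
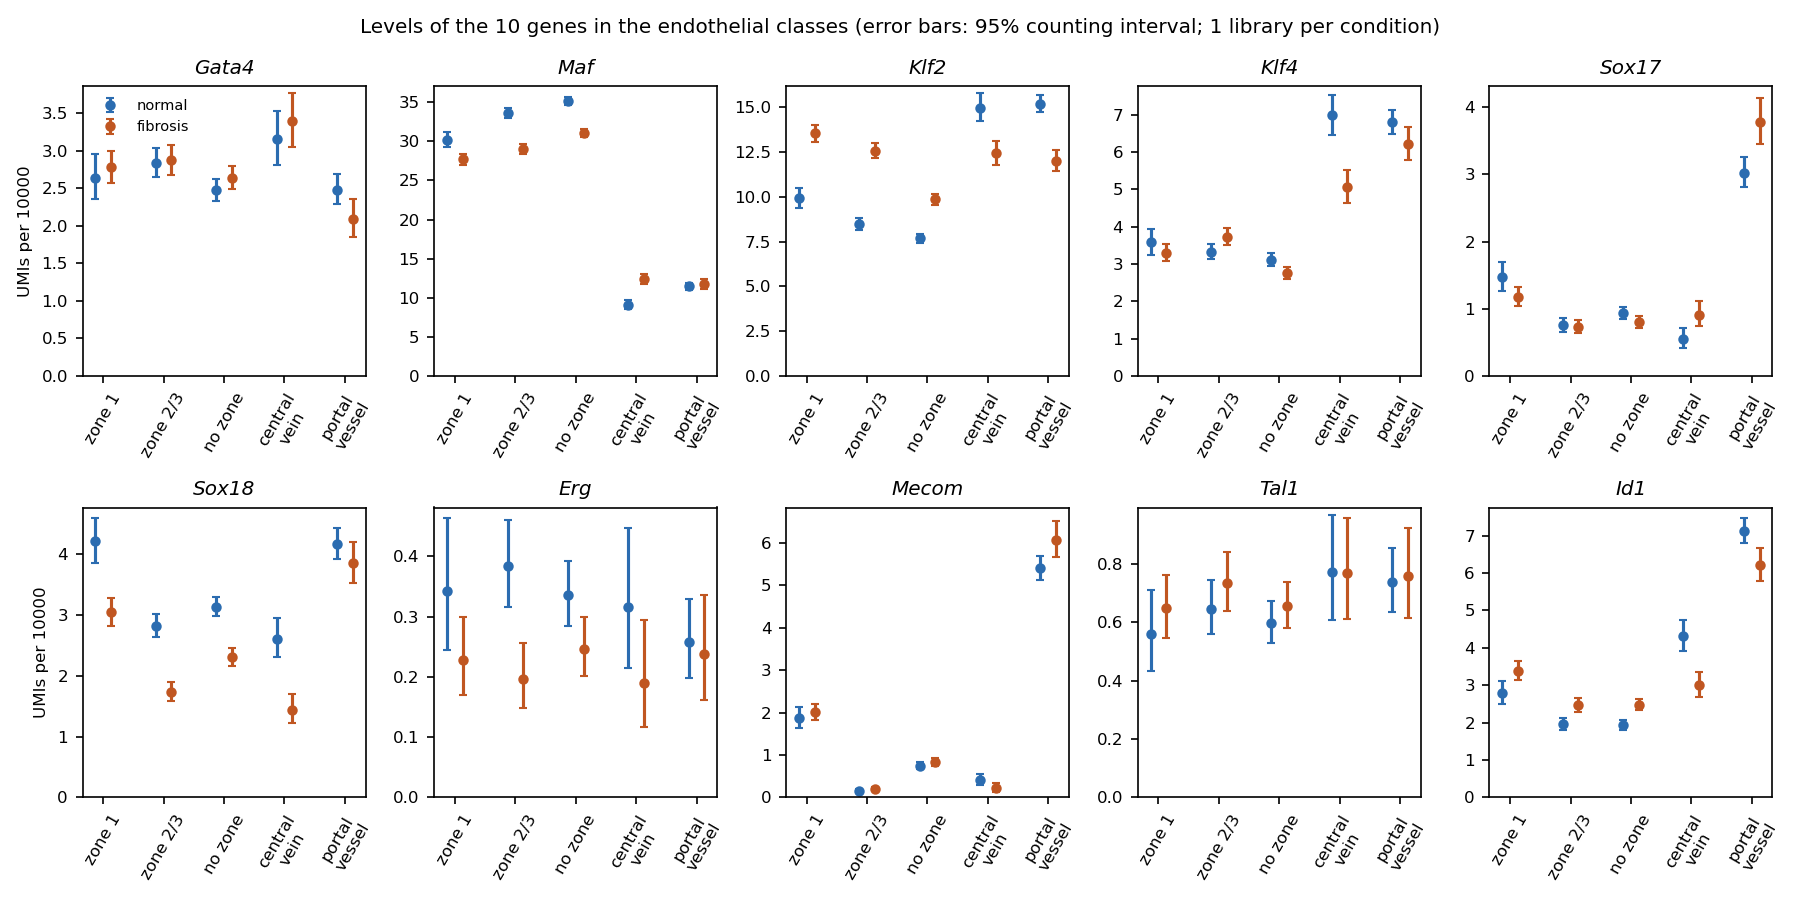
Level of each gene (UMIs per 10000, vertical axes scaled per gene) in the endothelial classes of the normal and the fibrosis library, with points for 1 library each and bars for the 95% counting interval. Mecom peaks at the portal vessels (5.4 and 6.08), Maf is lower in both vessel classes than in the sinusoid, and Klf2 in LSEC-like cells (11.6) is near the portal vessel value (12) in the fibrosis library.

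Between the fibrotic and the normal liver, most of the 10 genes differed less than 1.5-fold in sinusoidal endothelium. In LSEC-like cells 1 of 10 was called lower, Erg, against 10.7% of all genes, and 0 higher, against 10.3%, so the members' share was near the background. The median log2 ratio was 0.02 over the 10 genes and 0.05 over all 9434 genes measured. Erg stood at 0.353 UMIs per 10000 in the normal (0.315 to 0.394) and 0.227 in the fibrosis library (0.197 to 0.26), a ratio of 0.644 (0.538 to 0.769). It was lower in 5 of 6 sinusoidal sub-clusters with at least 20 cells in each library, with ratios of 0.437 to 1.28. The interval lay below 1 in the larger zone 2/3-like one (0.40 to 0.85) and in one led by Lyve1 (0.278 to 0.695). It included 1 in the others, and sub-clusters of the same mice are not repeats. An Erg UMI was seen in 3.96% and 2.29% of LSEC-like cells. With levels per cell, where the median of all genes was 0.68 higher on the log2 scale in the fibrosis library, 6 genes were called higher and Erg, at −0.01, was not called.

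Sox18 was lower beside Erg. It stood at 3.18 and 2.32 UMIs per 10000 in LSEC-like cells of the normal and fibrosis libraries, a ratio of 0.728 (0.688 to 0.771) that misses the limit. It was lower in 6 of 6 sub-clusters, with an interval that included 1 in the one led by Abcc9 (0.755 to 1.06). In zone 2/3-like cells both passed the limit, giving 2 of 10 genes lower, against 11.7% of all genes. Sox18 was at 2.82 and 1.74 there (ratio 0.617, 0.551 to 0.69) and Erg at 0.384 and 0.197 (ratio 0.514, 0.367 to 0.713). Of these cells 140 normal but 9 fibrosis ones belonged to 1 of 2 sub-clusters. In the other, Sox18 (ratio 0.656, 0.578 to 0.743) and Erg (0.584, 0.40 to 0.85) were called lower too, and Mecom was called higher (1.93, 1.14 to 3.4). Over the whole class Sox18 was not called at a mitochondrial limit of 5% (ratio 0.903), nor Erg without the top doublet scores (0.847). With levels per cell neither was called (0.88 for Sox18 and 0.733 for Erg). In zone 1-like cells Erg alone was called, at 0.342 and 0.228, against 15.1% of all genes, and the interval of its ratio includes 1 (0.434 to 1.03). This call was lost with the transcription factors kept in clustering (ratio 0.816), at resolution 0.4 (0.686) and without the top doublet scores (0.782). It was also lost with zones clustered in each library on its own (0.951) and without the 3 cells with most Erg UMIs (0.671). In no-zone cells 0 of 10 were called, against 23.2% of all genes in either direction. The 0 depended on the sub-clusters pooled there. Without the one led by hepatocyte genes, Erg was called lower at 0.369 and 0.242 (ratio 0.657, 0.497 to 0.866), and Erg and Sox18 were both called lower with the transcription factors kept in clustering, at resolution 0.4 and without the top doublet scores. The sub-clusters took unequal shares of the libraries (378 and 66 cells in the one led by hepatocyte genes, 124 and 236 in the one led by Lyve1, 238 and 34 in the one led by Ifit2), and some ratios within them passed the limit. Erg was at 0.437 times its normal level (0.278 to 0.695) and Mecom at 1.93 (1.21 to 3.23) in the Lyve1 one, Mecom at 2.16 (1.4 to 3.3), Klf2 at 1.78 (1.56 to 2.02) and Sox18 at 0.517 (0.368 to 0.711) in the hepatocyte-led one, and Klf2 at 1.61 (1.47 to 1.77) in the Ifit2 one. The others past the limit were Sox18 in the Lyve1 one (0.66), Tal1 in the hepatocyte-led one (1.72), and Tal1 (1.79) and Id1 (1.63) in the one led by Abcc9.

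Klf2, Mecom and Id1 were higher in fibrosis LSEC-like cells, by less than the limit over all of them. Klf2 was at 8.26 and 11.6 UMIs per 10000 (ratio 1.4, 1.36 to 1.45), Id1 at 2.06 and 2.7 (ratio 1.31, 1.23 to 1.39) and Mecom at 0.692 and 0.925 (ratio 1.34, 1.2 to 1.49). Each was higher in 6 of 6 sub-clusters, with ratios of 1.26 to 1.78 for Klf2, 1.18 to 1.63 for Id1 and 1.07 to 2.16 for Mecom, at least 1.5 in 2, 1 and 3 of them. These sub-clusters come from the same 2 mice and are not repeats. The Mecom interval included 1 in zone 1-like cells (0.913 to 1.27), the one led by Abcc9 (0.964 to 1.77) and the Ifit2 one (0.868 to 1.66). That of Id1 included 1 in the hepatocyte-led one (0.929 to 1.63). The 3 Mecom ratios past the limit rested on 20, 21 and 69 normal UMIs. The median over sub-clusters was 1.61 for Mecom, above its ratio over all LSEC-like cells. Maf was at 34 and 29.6 (ratio 0.871, 0.856 to 0.885) and lower in 6 of 6, within 0.844 to 0.917. Gata4 (2.62 and 2.74), Klf4 (3.25 and 3.18), Sox17 (0.943 and 0.872) and Tal1 (0.61 and 0.679) had intervals of the ratio that include 1. The dissociation stress genes summed to 89.2 and 109 in the same cells, and their part in the Klf2 and Id1 values was not tested. Without the sub-cluster led by hepatocyte genes Erg was at 0.37 and 0.224 (ratio 0.606, 0.503 to 0.728), Klf2 at 8.51 and 11.6 (ratio 1.36, 1.32 to 1.4) and Maf at 34.8 and 29.7 (ratio 0.853, 0.839 to 0.868), and Erg was still the gene called, as it was without the 3 sinusoidal sub-clusters whose shares differed at least 3-fold between the libraries.

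In the larger vessels some genes took the direction opposite to that in LSEC-like cells. Others kept it, Sox18 and Erg in central vein-like cells among them. In portal vessel-like cells 0 of 10 genes were called, against 28.6% of all genes in either direction. Klf2 was at 15.2 and 12 UMIs per 10000 there (ratio 0.789, 0.744 to 0.838), below 1 where LSEC-like cells were above it, and Sox17 was at 3.03 and 3.78 (ratio 1.25, 1.11 to 1.4). The class held 2 sub-clusters. In the smaller, with 161 and 67 cells, Sox17 was at 3.39 and 5.34 (ratio 1.58, 1.35 to 1.84) and passed the limit, the 1 of the 10 genes to do so there. In the other it was at 2.69 and 2.69 (ratio 0.999, 0.837 to 1.19), and 0 of 10 passed. Sox17 over the whole class was called at a mitochondrial limit of 5% (ratio 1.71), with no such limit (1.52) and with zones clustered in each library on its own (1.54). In central vein-like cells 3 of 10 were called lower (Sox18, Erg and Mecom), against 17.9% of all genes, and 1 higher (Sox17), against 19.6%. Sox18 stood at 2.61 and 1.45 (ratio 0.553, 0.45 to 0.679). The other calls rested on few UMIs: 54 and 96 for Sox17, 40 and 23 for Mecom, and 31 and 20 for Erg, whose ratio of 0.604 has an interval that includes 1.

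These central vein calls also depended on which cells were named so and on the scale. With the transcription factors kept among the clustering genes, the log2 ratio of Mecom went from −0.89 to 0.93 and that of Sox17 from 0.73 to −0.05, and Erg was not called, whereas Sox18 was. With levels per cell none of the 3 lower calls was made, at ratios of 0.776 for Sox18, 0.846 for Erg and 0.754 for Mecom, and Gata4 (1.51) and Maf (1.91) joined Sox17 as higher. The 12 sinusoidal genes summed to 45.2 UMIs per 10000 in normal and 69.1 in fibrosis central vein-like cells, against 196 and 180 in LSEC-like cells, and 7 of 11 measured were called higher. Maf, which marks the sinusoid among the 10, was at 9.08 and 12.4 in central vein-like cells (ratio 1.36). The part of sinusoidal RNA or cells in these values was not tested.

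**Figure D4:**
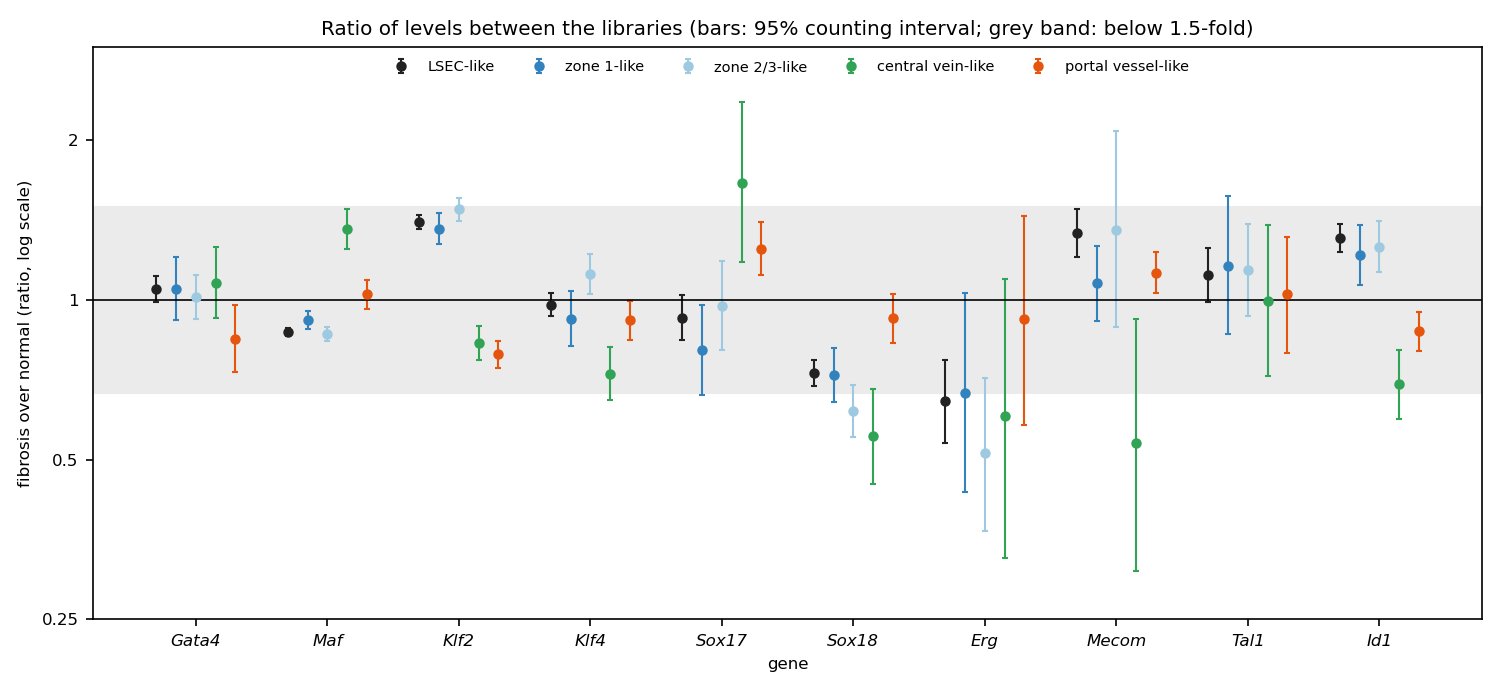
Ratio of the level in the fibrosis library over the normal library (log scale) for each gene in the endothelial classes, with bars for 95% counting intervals and 1 library per condition. In LSEC-like cells Erg and Sox18 lie below 1 (0.644 and 0.728), and Klf2 lies above 1 in LSEC-like cells (1.4) and below it in portal vessel-like cells (0.789).

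Outside the endothelium the genes called between the libraries differed by class. These classes were clustered in each library on its own, so a ratio between libraries also holds any difference in which cells were grouped. Kupffer cell-like cells, for example, were 2 clusters with medians of 6730.5 and 1637 UMIs per cell in the normal and 1 with 11836 in the fibrosis library. In PF-like cells (43 and 93 cells) Klf4 was at 3.41 and 0.602 UMIs per 10000, a ratio of 0.176 (0.135 to 0.231), and was the 1 gene called lower of 5 measured, against 15.2% of all genes. Gata4 was at 0.445 and 1.18 (ratio 2.64, 1.57 to 4.8) and Id1 at 0.564 and 1.13 (ratio 2.01, 1.26 to 3.4), the 2 called higher, against 32.6%. In Kupffer cell-like cells Klf4 was at 2.86 and 1.5 (ratio 0.524, 0.469 to 0.585), 1 of 2 genes called lower of 6 measured, against 11.8%; the other was Sox18, which lay near its carried-over level. In HSC/MF-like cells (120 and 401 cells) 1 of 10 was called, Mecom, which was lower at 0.531 and 0.232, against 10.6%, and was 2.05 and 0.752 times its carried-over level. Of its 73 normal UMIs 36 came from 3 cells, and without the 3 highest cells of each library the levels were 0.283 and 0.183, just past the limit.

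In mesothelial-like cells (46 and 80 cells) Id1 was called in the opposite direction to PF-like cells, at 4.43 and 2.37 UMIs per 10000 (ratio 0.535, 0.456 to 0.627). It was 1 of 2 called lower of 7 measured, against 15.8% of all genes, and the other, Mecom, rested on 18 and 12 UMIs and was not called without the 3 highest cells of each library. Maf was the 1 called higher, at 2.94 and 8.38 (ratio 2.85, 2.43 to 3.36), against 32.3%. In B cell-like cells Id1 was the 1 gene called higher of 8 measured, at 0.581 and 1.6 (ratio 2.75, 2.14 to 3.52), against 26.1%. The 3 called lower there were Sox17, Sox18 and Mecom, against 14.4%, where the endothelial-only genes stood at 14.8% and 12.3% of the LSEC-like level. In NK/T cell-like cells 4 of 9 were called higher, against 23.4%, and 0 lower, against 12%. Id1 was at 0.573 and 1.38 (ratio 2.41, 2.03 to 2.87) and Klf4 at 1.01 and 1.57 (ratio 1.55, 1.35 to 1.79). The others were Gata4, at 0.453 and 0.814, and Tal1, at 0.095 and 0.202, which were 1.26 and 1.27 times their carried-over levels in the fibrosis library, where the endothelial-only genes stood at 23.5% of the LSEC-like level, against 14.9% in the normal library.

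Genes that work with the 10 were read from lists, in LSEC-like cells and in the order normal, then fibrosis. Of 29 other endothelial transcription factors, 26 were measured, 4 called higher and 2 lower, with a median log2 ratio of 0.12 beside 0.05 over all genes, of which 10.3% were called higher and 10.7% lower. Fli1, an ETS factor gene related to Erg, was higher at 1.94 and 3.23 UMIs per 10000 (ratio 1.66, 1.57 to 1.77), the opposite direction to Erg. Bcl6b, a repressor gene, was at 0.69 and 1.69 UMIs per 10000 (ratio 2.45, 2.23 to 2.69), and Klf6, of the family of Klf2 and Klf4, at 2.26 and 3.57 UMIs per 10000 (ratio 1.58, 1.49 to 1.67). Hhex, a homeobox gene of endothelial and liver development, was lower at 1.04 and 0.667 UMIs per 10000 (ratio 0.639, 0.576 to 0.709). Of the 8 genes of the TAL1 complex, 1 was called higher and 1 lower (median 0.15), the lower being Cbfa2t3, a co-repressor gene, at 3.33 and 2.06 UMIs per 10000 (ratio 0.621, 0.586 to 0.658).

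Lists of target genes were short, and with 10.3% of all genes called higher and 10.7% lower a single call is no result about a list. Of 8 BMP and SMAD target genes beside Id1, 5 were measured, 0 called higher and 1 lower (median −0.18). Id3, a relative of Id1, was at 9.79 and 7.44 UMIs per 10000 and was not called, while Id1 was at 2.06 and 2.7. Of 8 flow genes downstream of Klf2 and Klf4, 6 were measured, 1 called higher and 0 lower (median 0.32). The gene called was Thbd, which encodes thrombomodulin, at 2.44 and 3.7 UMIs per 10000 (ratio 1.52, 1.44 to 1.61), whereas Nos3, the endothelial nitric oxide synthase, was at 1.22 and 1.42 and was not called. Thbd and Lyve1 also served as zone markers.

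Of 12 sinusoidal genes, 11 were measured, 1 called higher and 0 lower (median −0.11), the one called being Lyve1, a hyaluronan receptor gene, at 4.76 and 10.2 UMIs per 10000 (ratio 2.15, 2.07 to 2.23). Of 10 continuous endothelial genes, 7 were measured, 2 called higher and 0 lower (median 0.43): Cd34 at 0.16 and 1.02 UMIs per 10000 (ratio 6.35, 5.32 to 7.63) and Esm1 at 0.37 and 1.3 UMIs per 10000 (ratio 3.53, 3.12 to 4.0). Gata4, which is known to hold this programme down, differed 1.05-fold in the same cells, and any link between these values was not tested. Esm1 also led the zone 1-like sub-cluster, which made up 13.3% of normal and 24.7% of fibrosis LSEC-like cells. The part of these shares in its ratio was not tested. Of the 14 dissociation stress genes 6 were called higher and 2 lower (median 0.37), among them Nr4a1 at 0.373 and 1.17 UMIs per 10000 (ratio 3.14, 2.78 to 3.56) and, in the other direction, Hspa1a at 3.09 and 1.43 UMIs per 10000 (ratio 0.464, 0.434 to 0.495). Of the 12 endothelial-only genes 0 were called higher and 1 lower (median −0.13), the lower being F8, the gene of coagulation factor VIII, at 10.4 and 6.19 UMIs per 10000 (ratio 0.598, 0.578 to 0.618).

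Single cells held several of the 10 genes at once. After 1000 UMIs were drawn from each cell, at least 3 of the 10 were seen in 49.8% of normal and 54.3% of fibrosis LSEC-like cells, and in 77.5% and 68.8% of portal vessel-like cells. Over the 5 endothelial classes the share ran from 47.7% to 77.5% in the normal and from 49.2% to 68.8% in the fibrosis library. Over the 13 normal classes outside the endothelium it ran from 1.18% (plasma cell-like) to 20.8% (HSC/MF-like), with a median of 5.45%, and over the 14 fibrosis classes from 2.22% (cholangiocyte-like) to 23.1% (mesothelial-like), with a median of 13.3%. These shares include endothelial RNA read in other classes, whose source was not tested. The endothelial classes stood above the others in each library, and a Klf2 UMI was seen in 50.5% of normal and 61.3% of fibrosis LSEC-like cells.

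The genes whose levels followed each member most closely were taken over 34 points, 17 classes in 2 libraries, as Pearson's r of log2(level + 0.1) among 8805 genes. Points of 1 library share its depth and may share carried-over RNA, and r is a description. The closest were Rapgef5 (r = 0.97) and Ramp2 (r = 0.96) for Gata4, Rgl1 (r = 0.97) and Tmem106a (r = 0.94) for Maf, Ushbp1 (r = 0.98) and Gpihbp1 (r = 0.98) for Sox18 and Cyyr1 (r = 0.98) and Tie1 (r = 0.97) for Tal1. For Erg they were Rasal2 (r = 0.93) and Fgd5 (r = 0.92), for Sox17 Ntn4 (r = 0.95) and Nrarp (r = 0.95) and for Mecom Efnb2 (r = 0.93) and Ntn4 (r = 0.92), where Efnb2 and Ntn4 are markers by which zone 1-like cells were named. Klf2, Klf4 and Id1 had looser neighbours, Msn (r = 0.91) and Pecam1 (r = 0.89), Heg1 (r = 0.87) and Slc39a10 (r = 0.84) and Anxa3 (r = 0.86) and Bnip3l (r = 0.86). Among the 10 genes themselves r ran from 0.50 for Erg with Id1 to 0.94 for Sox18 with Tal1.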

How the data were processed

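Non-parenchymal liver cells of 1 normal and 1 fibrosis mouse were profiled by 10x 3′ single-cell RNA-seq. The files hold counts deposited by the authors, that is, whole UMIs per gene and cell barcode, made with Cell Ranger 3.0.1 on the mm10 genome and not normalized. Genes without a UMI are not listed. The tables hold exon-mapped reads, so transcript starts and isoforms are not resolved.

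Cells with at least 200 genes and at most 10% mitochondrial UMIs were kept. Counts were scaled to 10000, and 2000 variable genes, 10 principal components, 20 neighbours and a Leiden resolution of 0.8 were used (scanpy 1.11.5, igraph 0.11.9, Python 3.11.15, numpy 2.4.6, scipy 1.17.1, pandas 2.3.3). The 10 genes and the lists of transcription factors, TAL1 complex and BMP targets were held out of clustering and naming. Clusters were named from at least 3 markers. Endothelial zones were clustered on both libraries together and needed a mean marker log2 fold of at least 0.5 in each library with at least 20 cells of the sub-cluster. The zone 2/3-like sub-cluster of 140 normal and 9 fibrosis cells was thus named on the normal library alone. This naming rule was the last of 4 rounds on these cells, judged from leading genes, marker counts and cluster sizes, before any level of the 10 genes was computed. Scrublet called 3 and 1 cells, and doublets were not removed here, so some may remain. The paper states that it excluded doublets with the same tool, and why so few were called here was not tested.

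Levels have exact Poisson intervals, ratios exact conditional intervals and shares exact Clopper-Pearson intervals, all at 95%. PCR duplicates are collapsed by UMI, and the intervals and the floor of 3 counts cover counting error only. With 1 library per condition no test was run. The calculation was checked on LSEC-like counts simulated with counting error alone. Of 9175 genes, 200 at 0.5 UMIs per 10000 or more were changed 2-fold, up or down. Of these 100% were recovered at the 1.5-fold limit, and 95.3% of intervals held the true ratio. Smaller changes and lower levels, such as those of Erg, were not simulated, nor was any spread between animals. The named genes were the 10 members, from each list up to 4 called genes with the largest ratio in LSEC-like cells at 0.5 UMIs per 10000 or more, and the 2 genes most like each member. Id3, Nos3 and Stab2 were named after their values were seen. Positions are from GENCODE M21 (GRCm38) and promoters from RefSeq (GRCm38.p6).

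The members and lists were chosen with earlier results of these data known. Chosen after levels of the 10 genes had been seen were the comparisons of vessels with LSEC-like cells and those outside the endothelium, the 2-fold limit on carried-over RNA, the promoters and motifs shown, the rule for results listed for a closer look (a stricter first version found none), the alternatives without sinusoidal sub-clusters of unequal share or led by hepatocyte genes and, outside the endothelium, without the 3 highest cells, the use of 1 thinning draw per cell, and a correction that puts the low-value filter of the per-cell alternative on the scale of a cell of mean depth. In all, 15 alternatives were planned and 5 added.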

Additional observations from a re-analysis of the deposited data

Results flagged for a closer look

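For 4 of the 10 genes the log2 ratio of fibrosis over normal lay on opposite sides of 0, counting intervals included, between LSEC-like cells and at least 1 of the larger vessel classes or between these. Of all 8997 genes measured in each of the 3 classes, the 10 among them, 3.26% met the same rule. It rests on counting intervals, which are narrower for genes with more UMIs. With 1 library per condition the difference between classes was not tested, and animal, library and condition cannot be told apart. Klf2 was at 0.49 in LSEC-like cells, −0.27 in central vein-like cells and −0.34 in portal vessel-like cells. Id1 was at 0.39, −0.53 and −0.20 in the same order. Maf was at −0.20 in LSEC-like and 0.45 in central vein-like cells. Mecom was at 0.42 in LSEC-like, −0.89 in central vein-like and 0.17 in portal vessel-like cells, and its central vein value became 0.93 when the transcription factors were kept among the clustering genes.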

How the results depend on the processing

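No paired analysis was possible because each condition has 1 sample. Leaving out a replicate was not possible for the same reason. The counts below are of the 10 genes called. Those with the B cell-like level subtracted are no check on carried-over RNA for Klf2 and Id1. In normal and fibrosis B cell-like cells Klf2 was 8.68 and 7.86 times its carried-over level, and Id1 1.92 and 4.82 times. The normal B cell-like Klf2 level (10.6) exceeded the LSEC-like one (8.26). Subtraction thus left no normal Klf2 and an infinite ratio in LSEC-like, zone 1-like and zone 2/3-like cells. Id1 was then called lower in zone 2/3-like, central vein-like and no-zone cells. Fibrosis against normal in LSEC-like cells gave 2 with zones clustered in each library on its own, 6 per cell, 0 at a fold of 2 and 3 with the B cell-like level subtracted. Zone 1-like cells gave 0 with the transcription factors kept in clustering, at resolution 0.4, without the top 5% of doublet scores, without the 3 cells with most UMIs of each gene and at a fold of 2, then 2 with zones clustered separately, 5 per cell and 2 after subtraction. Zone 2/3-like cells gave 5 per cell and 0 at a fold of 2. Central vein-like cells gave 2 with the factors kept, 2 at resolution 0.4, 2 without the top doublet scores, 0 at a fold of 2 and 8 after subtraction. Portal vessel-like cells gave 1 at a mitochondrial limit of 5%, 1 with no such limit, 2 with separate zones and 1 after subtraction. No-zone cells gave 2 with the factors kept, at either resolution, without the top doublet scores, with separate zones and after subtraction, 1 without the sub-clusters of unequal share, 1 without the sub-cluster led by hepatocyte genes and 5 per cell. Zone 1-like against zone 2/3-like cells gave 4 with separate zones, 1 at a fold of 2 and 4 after subtraction in the normal library, and 5 without the top doublet scores, 1 at a fold of 2 and 5 after subtraction in the fibrosis library. LSEC-like cells over other classes gave 0 per cell in either library, and 2 at a fold of 2 in the fibrosis library. The other 123 counts stayed within 1.5 times the reported one, 98 with the reported genes and directions and 25 with others. Among the 25, zone 2/3-like cells called Erg but not Sox18 at a mitochondrial limit of 5% and after subtraction, and Sox18 but not Erg without the top doublet scores, and central vein-like cells called 3 genes higher and 0 lower per cell. Leaving out the sub-cluster led by hepatocyte genes called Erg in no-zone cells and changed no gene called in the other 9 counts made with it.

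Per cell, the log2 ratio of Erg in zone 1-like cells became 0.014, and LSEC-like cells over the highest other class became −0.48 for Gata4 in the normal library and −0.55 for Gata4, −0.086 for Maf, −0.069 for Sox17, −0.11 for Sox18 and −0.62 for Erg in the fibrosis library. With the factors kept in clustering, central vein-like cells gave −0.048 for Sox17 and 0.93 for Mecom. The cause was not tested. Of the other values, 1257 moved by less than their counting interval and 344 by more. The per-cell scale raised the median log2 ratio of all genes, fibrosis over normal and 0.05 as reported in LSEC-like cells, by between 0.50 and 0.64 in LSEC-like, zone 1-like, zone 2/3-like and central vein-like cells. It raised this median by 0.70 in no-zone cells and moved it by −0.03 in portal vessel-like cells. Some settings left no zone 1-like, zone 2/3-like or central vein-like class and gave no value: the factors kept in clustering, resolution 0.4, a mitochondrial limit of 5% and separate zones. The separate zones, the lower marker limit for zones, both settings that leave out sub-clusters and, outside the endothelium, the one without the 3 highest cells were chosen after seeing the data, as was every alternative for no-zone cells. Erg, at 210 UMIs in fibrosis LSEC-like cells, is the gene most limited by depth there.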

Other observations

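Endothelial cells outside the zones carried the same genes. Cycling endothelial cells (62 normal and 140 fibrosis cells) held Maf at 28.0 and 22.3 UMIs per 10000 and Gata4 at 2.63 and 2.45, against 34.0 and 29.6 for Maf and 2.62 and 2.74 for Gata4 in LSEC-like cells. Tal1 in cycling cells was at 0.327 (0.187 to 0.531) and 0.653 (0.537 to 0.786), resting on 16 and 111 UMIs. A mixed group (225 and 242 cells), in which markers of several classes met, held Maf at 21.4 and 21.8 and Klf2 at 4.77 and 9.09, but not the same kind of cells in each library. Of the normal ones 149 were in a sub-cluster led by hepatocyte and macrophage genes, and of the fibrosis ones 219 were in one led by lymphatic and mesenchymal genes (Mmrn1, Ccl21a and Acta2 among them), so these values are not a comparison. The 4 haemoglobin genes summed to 811 UMIs per 10000 in the mixed cells of the normal library and 116 in those of the fibrosis library.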
